A study of Mus musculus with 9 samples.

Results

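The antioxidant enzymes described here are 10 genes outside the selenoproteins and metallothioneins, namely the superoxide dismutases Sod1, Sod2 and Sod3, the peroxide-removing genes Cat, Prdx1 and Txn1, the glutathione transferases Gstm1 and Gsta4, and the heme and quinone enzymes Hmox1 and Nqo1. They were chosen by name, although earlier results of these data were known, and all 10 were found among the 55302 gene symbols measured. They were profiled in fibroblasts sorted from lungs of mice at an early stage of metastasis, with PBS in 4 animals and doxorubicin (DOX) in 5. Doxorubicin is an anthracycline drug that damages DNA and is known to give rise to superoxide when its quinone ring is reduced and oxidized again. Methods describe female mice, 8 weeks old at the start, that received breast tumour cells into the mammary gland. The tumour was removed 2 weeks later, and DOX at 5 mg/kg or vehicle was given 4 days after surgery and again 5 days after that. Mice were killed 24 h after that second dose. All 9 mice had therefore borne and lost a primary tumour. Methods name 2 mouse models, 4T1 cells in BALB/c mice and EO771 cells in C57BL/6 mice, and the labels do not say which strain gave these libraries. The labels call the control both Pbs and saline, and each library a separate biological replicate. The gate was CD45-, EpCAM- and PDGFRα+, and Methods add CD31-.

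Superoxide dismutases turn superoxide into hydrogen peroxide, Sod1 mainly in the cytosol, Sod2 in the mitochondrial matrix and Sod3 outside the cell. Catalase, peroxiredoxins and glutathione peroxidases then remove the peroxide, and thioredoxin returns oxidized peroxiredoxins to work. Several of these genes, Nqo1, Hmox1, Prdx1 and glutathione transferases among them, are well-known targets of NRF2, a transcription factor that is held down by KEAP1 until the cell meets oxidants. Sod3 is known to be abundant in the lung, where it binds the extracellular matrix.

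Promoter sequences of Sod1, Prdx1 and Sod2 are shown as background, and their letters are not set against the reads of these genes. RefSeq promoters on GRCm38.p6, 250 bases up to the transcript start, were at hand for 7 of the 10 genes in 8 windows. The letters TGACNNNGC, the core of the antioxidant response element to which NRF2 binds, were present on either strand in 10.2% of 32851 such windows and in 2 members, Sod1 and Prdx1. The windows of Sod1, at chr16:90220512-90220761 on the plus strand, of Prdx1, at chr4:116685349-116685598 on the plus strand, and of Sod2, at chr17:13007589-13007838 on the plus strand, are given 5′ to 3′. Capitals mark TGACNNNGC, the AP-1 type letters TGANTCA, the TATA-type letters TATAAA and the GC box letters GGGCGG, each on either strand.
Sod1: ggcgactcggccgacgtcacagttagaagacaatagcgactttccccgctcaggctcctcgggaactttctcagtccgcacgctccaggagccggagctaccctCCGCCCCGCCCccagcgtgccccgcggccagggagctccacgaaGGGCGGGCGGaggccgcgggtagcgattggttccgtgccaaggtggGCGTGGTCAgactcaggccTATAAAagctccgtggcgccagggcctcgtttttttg
Prdx1: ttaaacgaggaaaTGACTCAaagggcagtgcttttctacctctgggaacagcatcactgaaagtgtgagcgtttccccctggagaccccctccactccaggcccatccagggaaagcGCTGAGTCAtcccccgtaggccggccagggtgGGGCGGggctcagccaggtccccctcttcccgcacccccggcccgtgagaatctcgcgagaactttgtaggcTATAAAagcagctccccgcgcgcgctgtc
Sod2: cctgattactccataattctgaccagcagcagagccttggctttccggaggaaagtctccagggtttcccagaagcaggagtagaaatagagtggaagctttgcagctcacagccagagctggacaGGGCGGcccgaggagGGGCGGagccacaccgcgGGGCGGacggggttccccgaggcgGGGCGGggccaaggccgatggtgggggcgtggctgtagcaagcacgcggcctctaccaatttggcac
In Sod1 the antioxidant-type letters lay 56 to 48 bases before the start on the other strand, next to TATA-type letters at 37 to 32 bases. In Prdx1 they lay 133 to 125 bases before the start, also on the other strand, and overlapped 1 of 2 AP-1-type matches. The Sod2 window held 4 GC box matches and none of the other letters. TGANTCA was present in 6.75% of all windows and in Prdx1 alone of the members, TATAAA in 12.4% and in 5 members, and GGGCGG in 32.7% and in 6 members. A match describes the letters only.

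**Figure D1:**
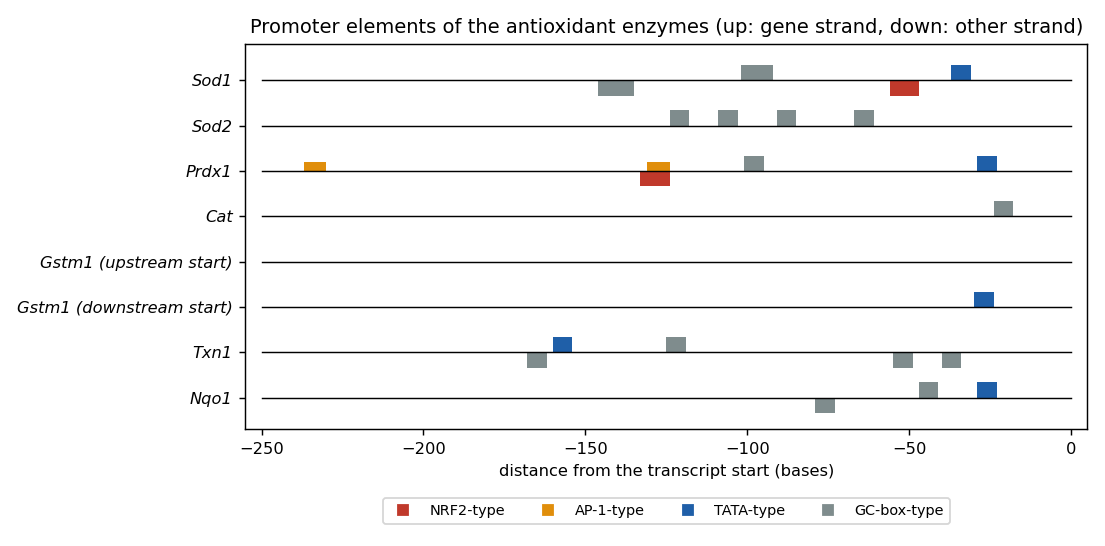
Positions of the 4 kinds of promoter letters in the 8 windows of 7 antioxidant enzyme genes, in bases before the RefSeq transcript start on the horizontal axis. Boxes above a line are on the strand of the gene and boxes below on the other strand. The NRF2-type box is seen in Sod1 and Prdx1 only of these windows, and the upstream Gstm1 window holds no box.

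Libraries were made by MARS-seq, which counts tags near the 3′ end of polyadenylated transcripts, so that values below compare a gene with itself across libraries. Values are normalised read counts, the reads assigned to a gene divided by a size factor of its library. The method keeps the strand of the RNA, and the strand setting of the count is not given. Several values run as they would if reads had been assigned to the opposite strand. Selenop stood at 6.48 to 56.1, whereas Ccdc152, with 439 exonic bases over it on the other strand, stood at 10044 to 21629. Of the mitochondrial protein-coding genes, mt-Nd6, the only 1 on its strand, stood at 285 to 859 and the other 12 at 0 to 42.6. Of 100 genes of highest mean value 87.0% had exons over the end of a coding gene on the other strand. The end was taken as the last exon within 500 bases of its end. The share was 42.3% of 2578 annotated tested genes and 10.9% of 17138 annotated genes above 0. Genes that nearly all cells use were low, with Eef1a1 at 2.43 to 59.0 and B2m at 1.26 to 52.3, although Actb was at 13577 to 40762. If the opposite strand was counted, the values of the 10 enzymes miss most of their own messenger RNA. Each value below is therefore a number of assigned reads, not a measure of how much of the enzyme's message the cells held. The genes given here for the strand, from Selenop to Actb, were chosen after their values were seen.

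Of the fibroblast markers, Col1a1 stood at 1027 to 2333 in all 9 libraries, whereas Pdgfra, the sorting gene, stood at 0.810 to 12.0 and Lum was at 0 in 4 libraries. PBS replicate 4 stood apart. Its 12 fibroblast markers summed to 1264, against 1791 to 3029 in the other 8 libraries, its 14 granulocyte markers to 1181 against 33.8 to 93.4, and its epithelial markers to 490.2 against 16.9 to 179, so each tested member is given with and without it. DOX replicate 2 had the fewest reads and the highest share of the ribosomal RNA gene CT010467.1, 35.3%. The share was 5.74 to 9.34% in PBS and 7.91 to 16.8% in the other DOX libraries. The log2 fold change of this gene was 1.14 (unadjusted p = 0.00929, adjusted p = 0.659, limma). With PBS replicate 4 set aside, the fibroblast, granulocyte and epithelial sums did not overlap between the groups, whereas the pan-immune and endothelial sums did. The fibroblast sum was 2652 to 3029 in PBS replicates 1 to 3 and 1791 to 2277 in DOX. Col1a1 made 1888 to 2333 of it in those PBS libraries and 1169 to 1785 in DOX. Col6a1, at 19.0 to 27.8 and 2.04 to 17.4, did not overlap either. The other fibroblast markers overlapped, among them Fbln1 at 241 to 311 and 197 to 360. The granulocyte sum was 33.8 to 37.9 in PBS replicates 1 to 3 and 65.8 to 93.4 in DOX, of which Ly6g made 13.0 to 30.6 and 49.7 to 84.4, whereas S100a9 was at 0 to 1.26 and 0 to 5.12. The sum of 15 epithelial markers was 16.9 to 37.9 in PBS replicates 1 to 3 and 48.3 to 179 in DOX. Of it Sftpc made 4.22 to 12.6 and 13.0 to 85.2, and Sftpb 0 to 3.17 and 3.71 to 46.5. The other epithelial markers overlapped, and Epcam was at 0 in all but 3 of the 9 libraries. The part of these cells in the values of the enzymes was not tested. In bulk libraries, fewer cells of a type and less RNA per cell cannot be told apart.

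No difference between DOX and PBS fibroblasts in the reads of an antioxidant enzyme passed the test over all genes. The 3 dismutases and Gstm1 had enough reads to be tested, and the other 6 had 109 reads in all 9 libraries together, against 3266 for these 4. Each of the 4 tested genes was above the minimum of 10 in all 9 libraries, so that none entered through 1 group. All 4 had a higher fitted mean in DOX, where 49.4% of the 2604 tested genes did. Of the 4, 0 passed an adjusted p of 0.05 (limma), as did 0% of all tested genes, and 0 were under an unadjusted p of 0.05, where 6.22% of tested genes were. No member had DOX values that all lay above or all below the PBS values, a pattern met by 2.65% of tested genes. The median log2 fold change was 0.33 for the 4 genes and -0.01 for all tested genes. With no filter on low values, all 10 members could be fitted, of which 5 had a higher and 5 a lower fitted mean in DOX, with a median of -0.10.

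**Figure D2:**
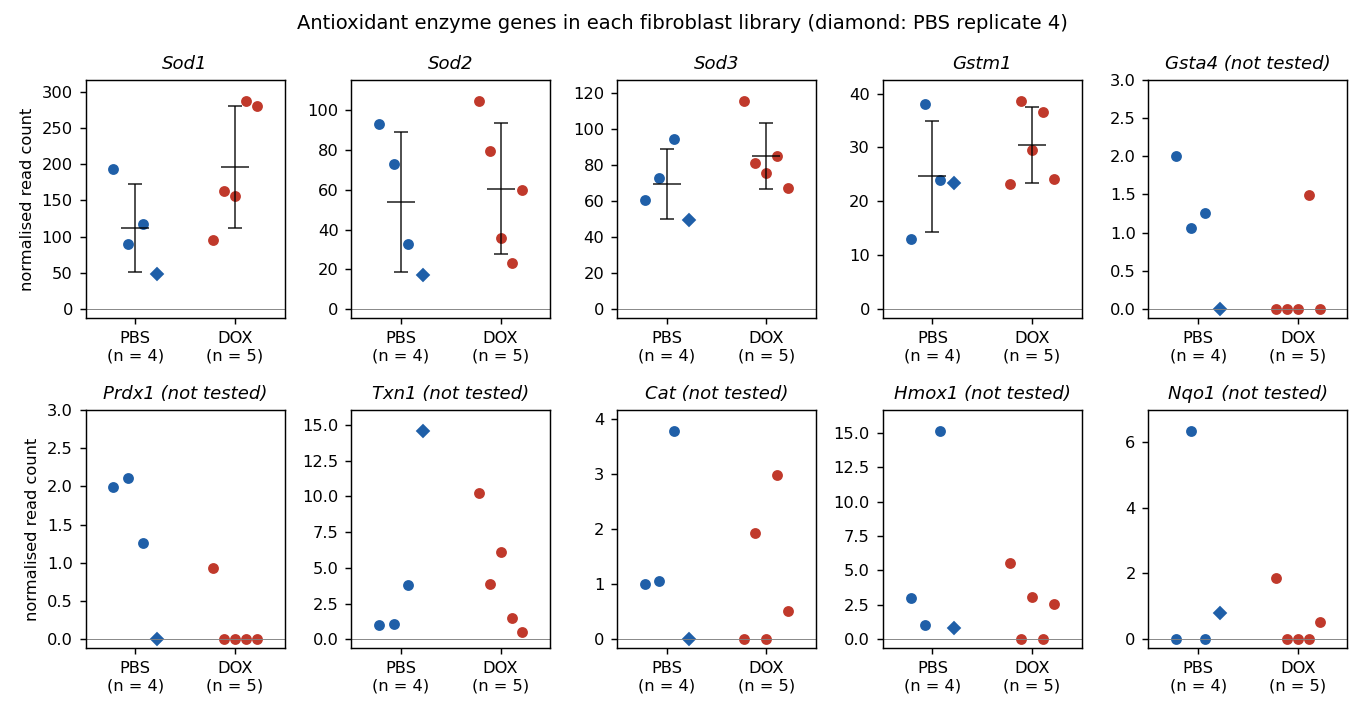
Normalised read count of each of the 10 antioxidant enzyme genes in each library, 4 PBS (blue) and 5 DOX (red), on a linear axis of its own for each gene. Points are libraries, the diamond is PBS replicate 4, and for the 4 tested genes the bars give the mean ± SD. The groups overlap in every panel, and the 6 untested genes stay at or under 15.1.

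Sod1 (ENSMUSG00000022982.10, chr16:90220754-90226329 on the plus strand, mm10), the copper and zinc enzyme of the cytosol, showed the widest gap of the 4 tested enzymes. Its normalised counts were 193, 89.7, 117 and 48.6 in PBS replicates 1 to 4, and 94.6, 163, 155, 288 and 279.7 in DOX replicates 1 to 5. DOX replicates 4 and 5 stood above every PBS library, and the other 3 DOX libraries lay within the PBS range. The PBS mean was 112 ± 60.7 (SD, n = 4) and the DOX mean 196 ± 84.3 (SD, n = 5), a ratio of 1.75. The log2 fold change was 0.85 (SE 0.40, 95% interval -0.01 to 1.71) with an unadjusted p of 0.0515 and an adjusted p of 0.761 (limma). The gap leaned on 1 library. Without PBS replicate 4, the lowest for Sod1, the PBS mean was 133 ± 53.3, the ratio 1.47 and the log2 fold change 0.51 (adjusted p = 0.778, limma). The 2 highest libraries, DOX replicates 4 and 5, were also the 2 with the most reads, 887830 and 1285816, and whether depth had a part in their Sod1 values was not tested. The epithelial marker sum and the granulocyte gene Ly6g were also higher in all 5 DOX libraries than in PBS replicates 1 to 3, and the fibroblast sum was lower. The granulocyte genes S100a8 and S100a9 overlapped between those libraries. PBS replicate 4, the lowest for Sod1, had the highest epithelial and granulocyte sums, 490.2 and 1181, and the lowest fibroblast sum, 1264. Whether other cells had a part in the Sod1 values was not tested. With each read taken as independent, counting error was small for Sod1. If some reads were copies of the same molecule, this error and those given for Sod2 and Sod3 would be larger. The 1700 reads imply a coefficient of variation of 9.72% in PBS and 6.92% in DOX from counting, against 54.2% and 43.0% measured between libraries. The gene Scaf4 lies on the other strand and its span overlaps that of Sod1 by 650 bases, but 0 bases are exonic in both, and Scaf4 stood at 0 to 17.7.

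Sod2 (chr17:13006846-13040063 on the plus strand), the manganese enzyme of mitochondria, varied more within each group, relative to its mean, than Sod1 did. Its normalised counts were 92.9, 72.8, 32.8 and 17.0 in PBS and 105, 79.4, 35.8, 23.2 and 59.9 in DOX, in replicate order. Only DOX replicate 1 exceeded the highest PBS library. The means were 53.9 ± 35.0 (SD, n = 4) and 60.6 ± 32.9 (SD, n = 5), and the log2 fold change was 0.25 (SE 0.53, 95% interval -0.87 to 1.38, adjusted p = 0.977, limma). The direction depended on PBS replicate 4. Without it the log2 fold change was -0.19, with a PBS mean of 66.2 ± 30.6. The spread between libraries, 65.0% of the mean in PBS and 54.3% in DOX, was again above the counting error of 13.9% and 13.5%.

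Sod3 (chr5:52363791-52371418 on the plus strand), the secreted enzyme, was the steadiest of the 4 tested genes. Normalised counts were 60.9, 72.8, 94.7 and 49.4 in PBS and 116, 81.3, 75.6, 85.2 and 67.6 in DOX. All DOX libraries but replicate 1 fell within the PBS range. The means were 69.5 ± 19.3 (SD, n = 4) and 85.1 ± 18.5 (SD, n = 5), with a log2 fold change of 0.31 (SE 0.31, 95% interval -0.35 to 0.96, adjusted p = 0.894, limma). Without PBS replicate 4, again the lowest library, it was 0.16. Its coefficient of variation, 27.8% in PBS and 21.7% in DOX, was closer to the counting error of 12.4% and 11.0% than for the other dismutases.

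Gstm1 (chr3:108012255-108017973 on the minus strand) encodes a glutathione transferase of the mu class, which couples glutathione to electrophiles. Its normalised counts were 13.0, 38.0, 23.98 and 23.5 in PBS and 23.2, 38.7, 29.6, 36.6 and 24.1 in DOX. The highest DOX library was above the highest PBS library by less than the value of 1 read there, 1.94. The means were 24.6 ± 10.3 (SD, n = 4) and 30.4 ± 7.07 (SD, n = 5), and the log2 fold change was 0.36 (SE 0.43, 95% interval -0.56 to 1.27, adjusted p = 0.917, limma). It turned on PBS replicates 1 and 2. Without the first, the lowest library, it was 0.10, and without the second, the highest PBS library, 0.59, whereas without PBS replicate 4 it was 0.37. Gstm1 has near-identical neighbours, and how reads that fit several of them were counted is not given, so that its level is uncertain. Of those, Gstm2 stood at 5.70 ± 3.46 in PBS and 8.29 ± 8.20 in DOX, and Gstm3, Gstm4 and Gstm7 had no read.

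**Figure D3:**
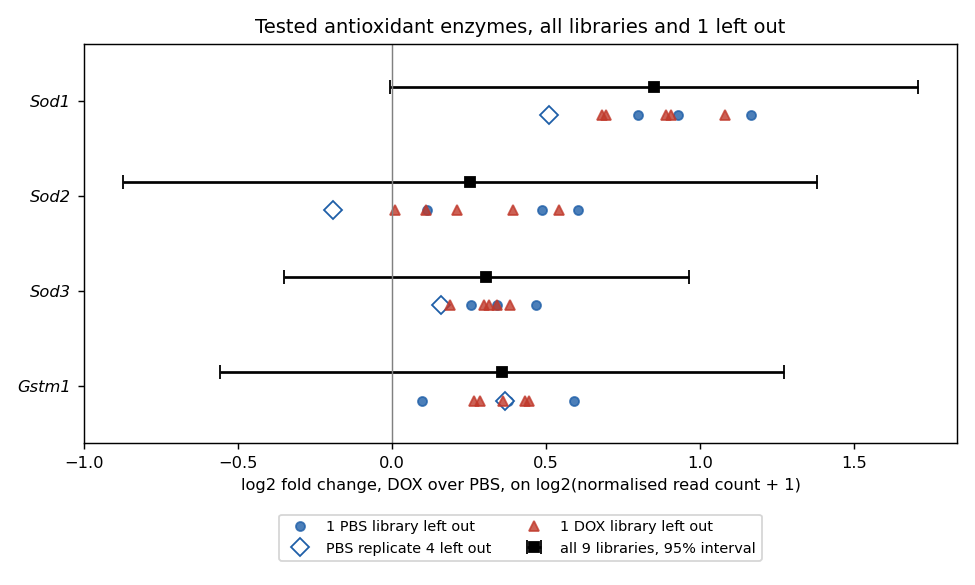
Log2 fold change of DOX over PBS for the 4 tested enzymes, from limma on log2(normalised read count + 1). Squares with bars are the estimate and 95% interval over all 9 libraries, and the smaller marks are the estimates with 1 library left out. All 4 intervals include 0, and leaving out PBS replicate 4 (open diamond) brings Sod1 to 0.51 and Sod2 to -0.19.

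The genes of peroxide removal had few assigned reads. Cat (chr2:103453849-103485160 on the minus strand), encoding catalase of the peroxisome, had 5 reads in the 4 PBS libraries and 6 in the 5 DOX libraries, and was at 0 in 3 of 9 libraries. Prdx1 (chr4:116685544-116700822 on the plus strand), a cytosolic peroxiredoxin, had 5 reads in PBS, at 2.00, 2.11, 1.26 and 0, and 1 read in DOX, in replicate 1. A library without a read allows up to 3 reads, which is a normalised count of 1.54 to 5.81 depending on the library, and the highest PBS value of Prdx1 was within what a count of 0 allows in DOX replicates 2, 3 and 4. These limits cover counting error only. Txn1 (chr4:57943373-57956411 on the minus strand), encoding thioredoxin, was the only untested member with a read in every library. Its normalised counts were 0.999, 1.06, 3.79 and 14.6 in PBS and 10.2, 3.87, 6.13, 1.49 and 0.512 in DOX. The top value came from PBS replicate 4, the library with the granulocyte markers. Without it the PBS mean was 1.95 ± 1.59, against 5.11 ± 6.45 with it and 4.44 ± 3.89 in DOX, so that the order of the means turned. The part of other cell types in this was not tested.

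The remaining untested members act on heme, quinones and aldehydes. Hmox1 (chr8:75093621-75100589 on the plus strand), which degrades heme, stood at 3.00, 1.06, 15.1 and 0.810 in PBS and 5.57, 0, 3.06, 0 and 2.56 in DOX. PBS replicate 3 held 12 of its 17 PBS reads, and DOX had 14. Nqo1 (chr8:107388225-107403206 on the minus strand), which reduces quinones by 2 electrons, had 7 reads in PBS, 6 of them in replicate 2, and 3 in DOX. Gsta4 (chr9:78182774-78209349 on the plus strand), a transferase that acts on lipid aldehydes, had 4 reads in PBS and 2 in DOX, both in replicate 4. With no filter on low values, the log2 fold changes of the 6 genes were -0.91 (Prdx1) to 0.04 (Txn1) with adjusted p of 0.781 to 0.991 (limma, 17428 genes). With 6 to 45 assigned reads a gene, these values do not show whether the 6 genes differed.

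Other genes of the same pathways were counted from lists, with means ± SD over the 4 PBS and the 5 DOX libraries. Of 105 such genes 92 had a read and 18 were tested, of which 11 had a higher and 7 a lower fitted mean in DOX. The median log2 fold change of the 18 was 0.13, 0 passed the adjusted threshold (limma) where 0% of all tested genes did, and 0 were under an unadjusted p of 0.05, where 6.22% of all tested genes were. No gene of the 18 had groups that did not overlap, a pattern of 2.65% of all tested genes.

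Of 16 other peroxiredoxin and thioredoxin genes 3 were tested, and all 3 had a higher fitted mean in DOX. Txnip, which binds and inhibits thioredoxin, stood at 9.84 ± 2.54 in PBS and 18.7 ± 13.7 in DOX, with 42.6 in DOX replicate 2 (fitted log2 fold change 0.67, SE 0.60, adjusted p = 0.875, limma). Prdx5, a peroxiredoxin of several compartments, stood at 8.38 ± 6.42 and 9.74 ± 4.60. Prdx5 shares 409 exonic bases with Trmt112 on the other strand, and Txnip shares 606 with Gm15441. As the strand setting is not given, their reads may be those of the partner. Txndc5, a disulfide isomerase of the endoplasmic reticulum, had a higher arithmetic mean in PBS, 141 ± 186 against 112 ± 64.0, with 418 in PBS replicate 4, whereas its log2 fold change was 0.35 (SE 0.66). Txndc5 shares 224 exonic bases with Bmp6 on the other strand, at 30.8 to 111, and is uncertain for the same reason.

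Glutathione genes were mostly below the minimum. Of 22 other glutathione transferases 16 had a read and only Mgst2, a microsomal enzyme, was tested (0.55, SE 1.07, on the log2 scale). Of 10 genes of glutathione synthesis and recycling only Slc3a2, the heavy chain of the cystine transporter, was tested. It stood at 10.6 ± 6.83 in PBS and 16.9 ± 8.93 in DOX (fitted log2 fold change 0.73, SE 0.67, adjusted p = 0.875, limma). Gclc and Gclm, the subunits of the rate-limiting enzyme of glutathione synthesis, had 5 and 20 reads in all libraries.

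Of 10 genes of heme and iron handling 3 were tested. Fth1, the heavy chain of ferritin, which stores iron away from reactions with peroxide, stood at 40.0 ± 13.9 in PBS and 61.6 ± 17.3 in DOX (fitted log2 fold change 0.62, SE 0.38, adjusted p = 0.802, limma). DOX replicates 1, 2, 4 and 5, at 58.1 to 77.7, exceeded the highest PBS library, at 55.9, and DOX replicate 3 stood at 34.7. The light chain gene Ftl1 gave 63.8 ± 26.2 and 64.5 ± 24.2, and Cp, encoding ceruloplasmin, 35.8 ± 13.9 and 37.3 ± 19.1. Ferritin genes have many processed copies, and Ftl1 shares 355 exonic bases with Gm10252 and Cp 108 with Hps3 on the other strand. With the strand setting not given, the reads of Ftl1 and Cp may be those of their partners.

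Among NRF2 and its regulators, 4 of 9 genes were tested, and 1 had a higher and 3 a lower fitted mean in DOX. Nfe2l2, which encodes NRF2, had 34 reads in all and was not tested, and Keap1 had 35. Nfe2l1, its relative, stood at 10.4 ± 2.11 in PBS and 18.8 ± 7.84 in DOX (fitted log2 fold change 0.71, SE 0.55, adjusted p = 0.853, limma). The small Maf partners Maff and Mafg gave log2 fold changes of -0.37 (SE 0.42) and -1.15 (SE 0.88), and Sqstm1, an autophagy receptor that binds KEAP1, -0.20 (SE 0.55). Sqstm1 shares 580 exonic bases with Mrnip on the other strand, and with the strand setting not given its reads may be those of Mrnip. None of the 14 other NRF2 target and NADPH-supplying enzymes was tested, although 13 had a read.

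Of 7 enzymes listed for the reduction of doxorubicin 2 were tested, and both had a lower fitted mean in DOX. Cyb5r3, a cytochrome b5 reductase, stood at 84.5 ± 69.5 in PBS, with 188 in PBS replicate 4, and 37.7 ± 25.2 in DOX (fitted log2 fold change -1.12, SE 0.55, adjusted p = 0.761, limma). Cyb5r3 shares 243 exonic bases with Gm49463 on the other strand, which had no read. The value of Cyb5r3 is uncertain too. Por, the cytochrome P450 reductase, gave 22.5 ± 6.15 and 20.3 ± 8.86. Of 11 superoxide sources 3 were tested. Nox1, a catalytic NADPH oxidase subunit, stood at 25.2 to 29.2 in the 4 PBS libraries and spread from 2.24 to 37.8 in DOX (fitted log2 fold change -0.83, SE 0.66, adjusted p = 0.856, limma). Cyba, the shared membrane subunit, gave -0.14 (SE 0.54), and Noxo1, an organizer subunit, 0.72 (SE 0.83). Noxo1 shares 2122 exonic bases with Tbl3 on the other strand and Nox1 shares 399 with Cstf2. Their reads may be those of the partners, as the strand setting is not given, so that both values are uncertain. Of 6 genes that deliver copper or manganese to the dismutases, only the copper chaperone Atox1 was tested (0.18, SE 0.88), and Ccs, the chaperone of Sod1, had 28 reads.

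**Figure D4:**
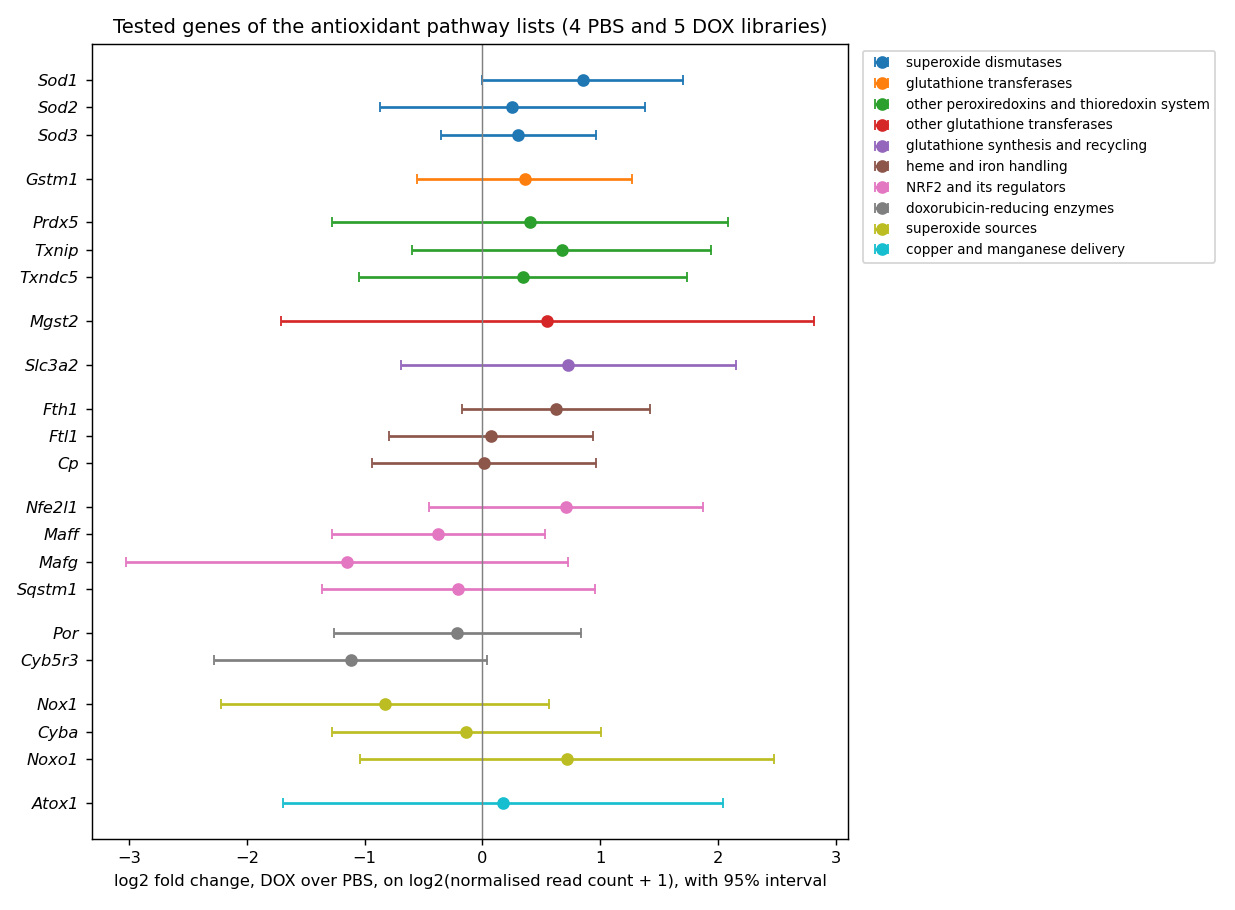
Log2 fold change of DOX over PBS with its 95% interval for the 4 tested members and the 18 tested genes of the pathway lists, from limma on log2(normalised read count + 1), coloured by list. Every interval includes 0, and those of Sod1 and Cyb5r3 end nearest to it.

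The 4 tested enzymes did not share 1 pattern over the libraries. Pearson's r of log2(value + 1) between pairs of them ran from -0.20 (Sod2 with Gstm1) to 0.35 (Sod2 with Sod3) over the 9 libraries, which share the 2 groups and their depths. Of all tested genes, those most like Sod1 were Tpt1 (r = 0.919) and Hnrnpk (r = 0.917). Those most like Sod2 were Lepr (r = 0.938) and Cd47 (r = 0.935), and those most like Sod3 were Lamp2 (r = 0.904) and Hsp90b1 (r = 0.880). For Gstm1 they were Nprl3 (r = 0.935) and Acvr1b (r = 0.887). These are the highest values among all tested genes and are descriptions of these 9 libraries.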

How the data were processed

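The data were 9 bulk RNA-seq libraries of sorted mouse lung fibroblasts, 4 from PBS-treated and 5 from DOX-treated mice. The authors deposited 1 normalized signal per gene and library, which is the number of reads over the size factor of that library. Per the labels and Methods, reads were mapped to mm10 with STAR and assigned to RefSeq genes with HTSeq-count. No tool version or strand setting is given in the sources used here. Whole reads were recovered from the deposited signal in 100% of values at a tolerance of 1e-06. Totals ran from 432322 to 1285816 reads a library. No pair of libraries in a group agreed within sampling noise, with chi-square values of 8.51 or more per degree of freedom.

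Differences were tested in R 4.3.3 by limma 3.58.1 with its intensity trend, two-sided, on log2(value + 1). The test covered 2604 genes, those that reached 10 in 4 or more libraries, and p-values were adjusted over all of them by Benjamini and Hochberg's method with a threshold of 0.05. Adjusted p-values come from this fit unless another is named. Alternatives were edgeR 4.0.16, DESeq2 1.42.0 and limma-voom on the recovered reads, other scalings, pseudocounts and filters, each library left out, a pan-immune covariate and the replicate number as a block. Both the limma and the edgeR code were tested on simulated data.

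The members, the gene lists and the alternatives were chosen with earlier results of these data known. The text names the 10 members, up to 4 genes of lowest p among the tested genes of each pathway list, genes on the other strand within a member, and for each tested member the 2 tested genes of highest Pearson r. The strand of the counts was described by the share of genes whose exons lie over the 3′ end of a coding gene on the other strand, which was added after the values were seen. Genes outside this rule are the ribosomal RNA gene, genes of the marker and pathway lists or neighbours of named genes, and those of the closing observations were picked from their values. Coordinates are from GENCODE M21 on mm10 and promoter sequences from RefSeq on GRCm38.p6. SD is the standard deviation over libraries and SE the standard error of the fitted difference.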

Additional observations from a re-analysis of the deposited data

Results flagged for a closer look

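Of 20 groups, the 10 antioxidant enzymes in PBS and in DOX, 5 held a library whose gap to its nearest neighbour exceeded Dixon's 95% limit. For continuous values chance gives about 1 in 20 groups. That share does not hold for these 5, which all belong to genes with few reads, and a group with reads in 1 library passes the limit whatever its value. Hmox1 stood at 15.1 in PBS replicate 3, against 3.00 in the next PBS library. Nqo1 stood at 6.33 in PBS replicate 2, against 0.810 in the next, and at 1.86 in DOX replicate 1, against 0.512 in the next. Prdx1 stood at 0.928 in DOX replicate 1, which is 1 read, with the other DOX libraries at 0. Gsta4 stood at 1.49 in DOX replicate 4, which is 2 reads, with the other DOX libraries at 0.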

How the results depend on the processing

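No member was called under any of 21 alternatives to the limma test. DESeq2 gave no adjusted p for Sod2, Sod3 and Gstm1, so that they could not be called there. Their unadjusted p were 0.761, 0.370 and 0.535 (DESeq2). Of all genes, 0 were called in the main test and in 20 of the 21 alternatives. The exception was no filter on low values, where 3 of 17428 genes were called, the ribosomal RNA gene CT010467.1 among them. There 459 genes were under an unadjusted p of 0.05, against 162 of 2604 with the filter (limma). The cause of that change was not tested. At an unadjusted p of 0.05 edgeR gave 148 genes, DESeq2 173 and limma-voom 160, with 0 called by each. Sod1, Sod3 and Gstm1 had a higher fitted mean in DOX in 21 of 21 alternatives. Sod1 ran from 0.51 to 1.16 in log2 fold change, its unadjusted p was under 0.05 in 6 alternatives, with 0.0132 as the lowest, and its adjusted p ran from 0.451 (DESeq2) to 0.874 (edgeR). Sod2 reversed to -0.19 without PBS replicate 4 and to -0.33 without PBS replicate 4 and DOX replicate 2. With 1 library left out at a time, Sod2 ran from -0.19 to 0.60 and the genes called stayed at 0. The correlations of same-numbered deviations were low, 0.0207 to 0.0665, but PBS replicates 1, 2 and 4 correlated best with their own number. Whether same-numbered libraries were handled together was not tested. The fit with the number as a block, without DOX replicate 5, called 0 genes, with 152 under an unadjusted p of 0.05 (limma). The 6 untested members had 6 to 45 assigned reads each over the 9 libraries, and whether depth or the strand counted set these numbers was not tested. The samples are labelled as biological replicates, and whether mice shared a cage or day is not stated in the sources.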

Other observations

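Some pathway genes under the minimum for the test were seen mainly in 1 or 2 libraries, and these were chosen after their values were seen. Gss, encoding glutathione synthetase, stood at 23.5 in PBS replicate 4 and at 0 to 1.02 in the other 8 libraries. Tkt, encoding transketolase of the pentose phosphate pathway, stood at 23.98 and 18.6 in PBS replicates 3 and 4 and at 0 to 2.56 in the others. Glrx2, a mitochondrial glutaredoxin, was at 0 in all 4 PBS libraries and at 15.5 in DOX replicate 2, with 17 reads in all. Gsto2, a glutathione transferase of the omega class, was at 0 in all 4 PBS libraries and in 2 of 5 DOX libraries, with 6.66 as its highest value. Ncf1 and Ncf4, subunits of the phagocyte oxidase, stood at 8.91 and 5.67 in PBS replicate 4, the library with the granulocyte markers, where S100a8 stood at 756 against 0 to 15.3 in the others. Ncf4 was at 0 in the other 8 libraries and Ncf1 at up to 1.49.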
